A study of Bos taurus with 16 samples.

Results

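The BCL2 family of cell death genes was followed in bovine oocytes and embryos that developed in vivo. Its 10 members were BCL2, BCL2L1, BCL2L10, MCL1, BCL2L11, BID, BIK, BAX, BAK1 and BOK. They were found by gene name among the 27393 loci of the deposited table, which carry 23404 gene names, and all 10 names were present. Where a name had several loci, as BID had, the locus with the highest mean was taken. Each of the 16 libraries was made from 1 oocyte or 1 embryo, with RNA amplified in a pair of rounds before RNA-Seq, and each of the 8 stages had 2 libraries. The stages were mature oocytes (MII), embryos of 2, 4, 8 and 16 cells (2C, 4C, 8C and 16C), early morulae (EM), compact morulae (CM) and blastocysts (BL). No group was treated or carried an altered gene, and breed and age of the cows are not given in the labels. MII, 2C and 4C samples (6) lie before embryonic genome activation (EGA), the onset of transcription from the embryo's own genome, and 8C to BL samples (10) lie after it.

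Proteins of the BCL2 family decide whether the outer membrane of the mitochondrion stays closed. BAX, BAK1 and BOK can form pores in it, BCL2, BCL2L1 (BCL-xL), BCL2L10 and MCL1 hold the pore formers in check, and BCL2L11 (BIM), BID and BIK belong to the BH3-only proteins, which relieve that restraint. Once the membrane is open, released cytochrome c and APAF1 activate caspases. Before EGA an embryo depends on transcripts stored in the oocyte, and MCL1 mRNA and protein are both known to turn over quickly in many cells.

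Between 607672 and 3379426 reads per library were recovered from the deposited values, with a median of 1347534. Levels are given as CPM, that is, reads on a locus per 1000000 reads of the library, which are not divided by gene length, and 3 reads, taken as the detection floor, were worth between 0.888 and 4.94 CPM. CPM are shares of the amplified reads of a single oocyte or embryo. A lower CPM can thus mean less of a transcript or more of all others, which cannot be told apart here. The labels give cell numbers for 2C to 16C only, so levels per cell are not given. Of all loci, 33.1% were at 0 in every library. HPRT1, SDHA, TBP and RPL7, which nearly every cell uses, were among them, and GAPDH had 26 reads in all. A member at 0 is therefore described only as listed at 0. The 8 oocyte markers (ZP2, ZP3, ZP4, GDF9, BMP15, NLRP5, ZAR1 and H1FOO) summed to between 3043 and 10057 CPM before EGA, with BMP15 listed at 0. They summed to 26.0 CPM in 8C replicate 1, 1463 CPM in 8C replicate 2 and at most 56.4 CPM from 16C on, so the pair of 8C libraries stood apart from each other. The 9 markers of the blastocyst lineages summed to at most 21.9 CPM before EGA and to 1293 and 1361 CPM in BL, with CDX2 on 1 read in all. They reached 173.8 CPM in 16C replicate 1 and 669.8 CPM in 16C replicate 2, the library with the fewest reads. The 10 cumulus or granulosa markers summed to between 564 and 1989 CPM before EGA and between 382 and 874 CPM after it, nearly all on STAR and HAS2, while PTX3, TNFAIP6 and VCAN had 12, 5 and 6 reads in all. HAS2 had between 68.7 and 298 CPM before EGA and at most 18.3 CPM after it. FSHR had between 1.48 and 9.20 CPM before EGA and 0 after it. CYP19A1 had between 3.55 and 24.3 CPM before EGA and at most 13.5 CPM after it. HSD3B1 went the other way, with at most 3.47 CPM before EGA and 54.3 CPM after it. Whether cumulus cells added reads before EGA was not tested. The 5 sperm markers were at 0 before EGA and reached at most 9.81 CPM, and the 4 blood markers likewise reached at most 7.42 CPM.

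Reads of the family fell on few members. BCL2L10 and MCL1 had 1184 and 2419 reads over all libraries, BCL2L1 had 137, BCL2L11 31, BOK 19 and BID 2. BCL2, BAX, BAK1 and BIK were listed at 0 in all 16 libraries. The members with enough reads to be followed by stage were BCL2L10, MCL1 and BCL2L1, all guardians of the membrane, and BCL2L10 fell while MCL1 rose across EGA. By limma with Benjamini-Hochberg adjustment over all loci tested, 2 of the 3 members kept by the filter of the 8-stage model had a stage effect, as did 66.7% of all 9670 loci tested. In the comparison of both periods the filter kept 2 of the 10 members, of which MCL1 was higher after EGA and BCL2L10 lower. Of all 6910 loci tested, 36.9% were higher and 29.9% lower after EGA, so a change at EGA was common among loci. BCL2L10 passed that filter through its reads before EGA, so its difference was favored by the filter, while MCL1 reached the level asked for in all libraries.

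**Figure D1:**
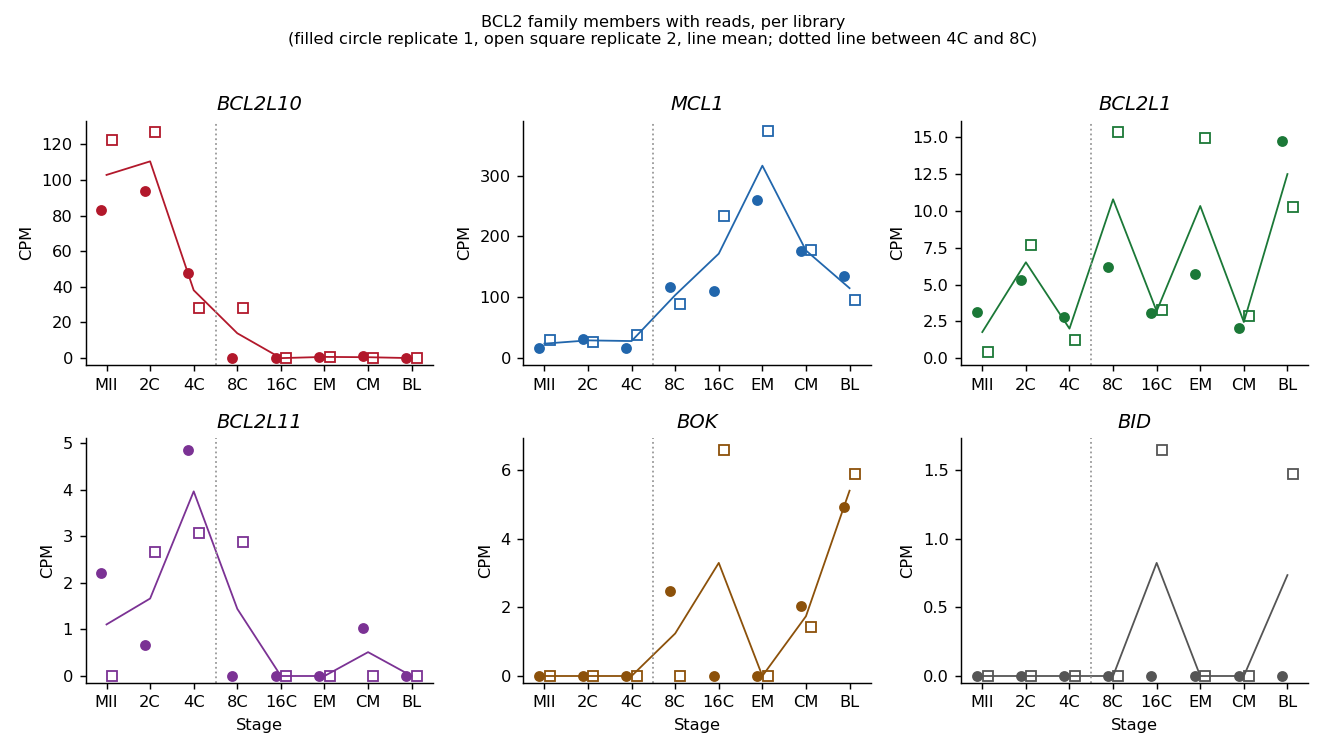
CPM of the members with reads (vertical axes) in each library by stage (horizontal axes), with points for libraries and a line through the stage means of 2 libraries. BCL2L10 lies between 28.3 and 127 CPM up to 4C and at 27.9 CPM or less from 8C on, and MCL1 lies between 17.3 and 38.7 CPM up to 4C and at 89.5 CPM or more from 8C on.

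BCL2L10 (locus XLOC_004309), a BCL2 homolog known for high transcript levels in the oocytes of several mammals, was the member with most reads in mature oocytes. Its level was 83.3 and 122 CPM in the 2 MII libraries, 93.8 and 127 CPM in 2C, 47.9 and 28.3 CPM in 4C, and 0 and 27.9 CPM in 8C. From 16C on it had 1 read in each EM library and in 1 CM library and none in the other 5. All 6 libraries before EGA were above all 10 after it, but the margin was narrow, since 4C replicate 2 (28.3 CPM) and 8C replicate 2 (27.9 CPM) nearly touched. The mean was 83.8 ± 39.5 CPM (SD, n = 6) before EGA and 3.03 ± 8.75 CPM (SD, n = 10) after it. On the scale of log2(deposited value + 1), used for all differences below, BCL2L10 fell by 6.09 (SE 0.67, limma adjusted p = 9.9e-08), and its stage effect had a limma adjusted p of 5.4e-05. Of all loci tested, 9.7% lay wholly higher before EGA. Against the mean of MII, the level was at least 20.8-fold lower in 16C and at least 23.3-fold lower in BL, with the floor of 3 reads in the shallower library of each stage.

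The timing of the BCL2L10 loss within the first cleavages was less certain than the loss itself. At the other steps between adjacent stages few loci were called: 1.2% higher and 0.217% lower from MII to 2C, 0.548% and 0.31% from 8C to 16C, 0.0207% and 0.0827% from 16C to EM, and 2.92% and 1.5% from CM to BL. None were called from 2C to 4C or from EM to CM, and no member was called at any of these steps. From MII to 2C the difference of BCL2L10 was -0.78 (SE 1.16, limma adjusted p = 0.831) and from 2C to 4C -1.42 (SE 1.16, limma adjusted p = 1). From 4C to 8C it was -3.09 (SE 1.16, limma adjusted p = 0.0479), at a stage step where 17.7% of all loci tested were called higher and 19.1% lower. This call lay close to the threshold. It was lost when any of 15 of the 16 libraries was left out, although without a library of another stage than 4C and 8C the step stayed at -3.09 (limma adjusted p from 0.0576 to 0.0730). It was lost in 7 of 9 alternatives: TMM scaling (-3.09, limma adjusted p = 0.0519), total read scaling (limma adjusted p = 0.0607), a pseudocount of 0.5 (0.0601), no filter (0.0883) and the replicate block (0.0510), as well as edgeR (-1.41, adjusted p = 0.259) and DESeq2 (-1.56, adjusted p = 0.305) on recovered reads. It rested on the 8C libraries, which differed as their oocyte markers did: the step was -0.54 without 8C replicate 1 and -5.64 without 8C replicate 2. From 8C to 16C the difference was -2.55 (limma adjusted p = 0.272), with DESeq2 it was -6.13 (adjusted p = 0.0430), and without 8C replicate 1 it was -5.10 (limma adjusted p = 0.00262). With both 8C libraries left out the difference between the periods was -6.55 (limma adjusted p = 5.1e-10). Whether the oocyte transcripts in 8C replicate 2 and its BCL2L10 reads have a common source was not tested.

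MCL1 (locus XLOC_050099), a guardian that restrains BAK1 and is destroyed on demand by ubiquitin ligases, showed the opposite course. Its level was 17.3 and 30.2 CPM in MII, 31.9 and 26.3 CPM in 2C, and 17.4 and 38.7 CPM in 4C. It was 118 and 89.5 CPM in 8C, 110 and 234 CPM in 16C, and 260 and 373 CPM in EM. It was then 175 and 178 CPM in CM and 135 and 95.4 CPM in BL. Every library after EGA was above every library before it, a pattern held by 18.4% of all loci tested, and EM had the highest pair. The mean was 27.0 ± 8.49 CPM (SD, n = 6) before EGA and 177 ± 89.8 CPM (SD, n = 10) after it. MCL1 rose by 2.11 (SE 0.32, limma adjusted p = 7.9e-06), with a stage effect at a limma adjusted p of 8.2e-04.

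The rise of MCL1 was called at 1 stage step. From 4C to 8C it was 1.94 (SE 0.55, limma adjusted p = 0.0128), with all 8C libraries above all 4C libraries. This call was lost without 4C replicate 1 (1.38, limma adjusted p = 0.149) and without 8C replicate 1 (1.60, limma adjusted p = 0.0905), where a stage was left with 1 library that is assumed to vary like the others. The further steps, 0.48 to 16C, 0.43 to EM, -0.27 to CM and -0.81 to BL, were within the spread between libraries (limma adjusted p of 0.477 or more). The order of the stage means was EM, CM, 16C, BL, 8C, 2C, 4C and MII, and only 8C and 4C, which are not neighbors in that order, were told apart by the tests of adjacent stages.

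Reads of BCL2L10 and MCL1 within a library do not depend on how libraries are scaled. Of the reads on all members, BCL2L10 took 79.3 ± 0.906% (SD, n = 2) in MII, 74.4 ± 4.50% in 2C and 52.7 ± 18.4% in 4C. Its share was 0% of 102 family reads in 8C replicate 1 (Wilson 95% interval up to 3.63%) and 20.6% of 141 in 8C replicate 2 (14.7% to 28.0%), and no later library exceeded 0.565%. These intervals cover counting error only, since amplified copies were not told apart. MCL1 took 25.8 ± 14.4% (SD, n = 6) before EGA and 91.1 ± 9.95% (SD, n = 10) after it. BCL2L10 and MCL1 held most family reads, so a loss of BCL2L10 alone would raise the share of MCL1. These are shares of reads, and gene length was not used, so a share compares stages and not the number of transcripts of different genes.

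The log2 ratio of BCL2L10 to MCL1 reads, each plus 1, was 2.12 ± 0.17 (SD, n = 2) in MII, 1.90 ± 0.51 in 2C and 0.49 ± 1.33 in 4C. It was -6.58 and -1.65 in the 8C libraries and between -8.40 and -6.04 in the later ones. The 4C embryos already parted, with 1.43 in replicate 1 and -0.45 in replicate 2, the single library before EGA with fewer BCL2L10 than MCL1 reads. Every library before EGA lay above every library after it. This ratio was chosen after the values were seen, because BAX, BAK1 and BCL2, which were to be set against the guardians, were listed at 0.

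**Figure D2:**
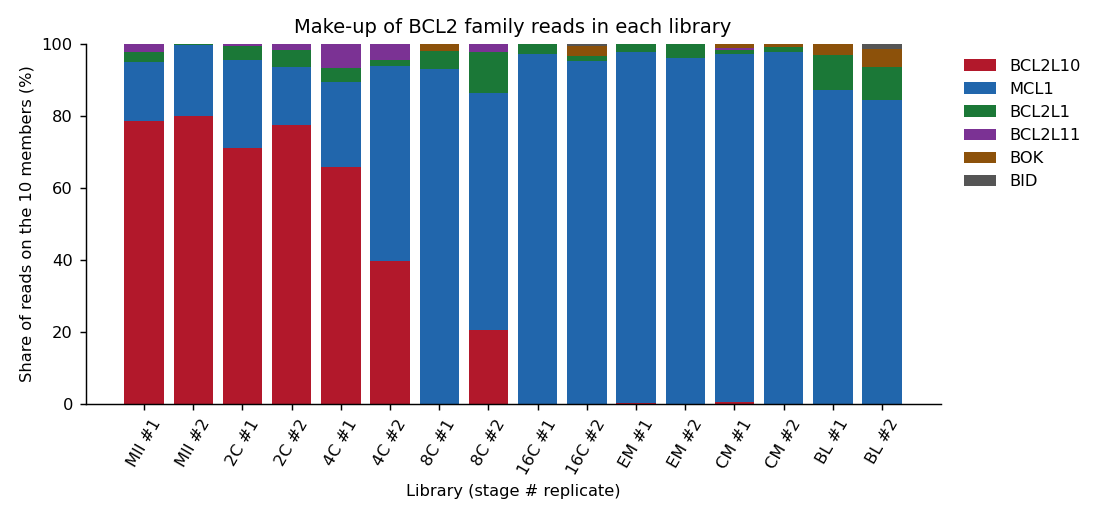
Share of the reads on all family members (vertical axis, percent) taken by each member in each library (horizontal axis, in order of stage). BCL2L10 takes between 39.7% and 79.9% up to 4C, and MCL1 takes between 66.0% and 97.7% from 8C on.

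BCL2L1 (locus XLOC_012892), which encodes BCL-xL, had reads in every library, between 1 and 27. Its level was 3.10 and 0.438 CPM in MII, 5.32 and 7.69 CPM in 2C, and 2.78 and 1.23 CPM in 4C. It was 6.19 and 15.4 CPM in 8C, 3.09 and 3.29 CPM in 16C, and 5.72 and 15.0 CPM in EM. It was 2.05 and 2.86 CPM in CM and 14.7 and 10.3 CPM in BL. High and low stages alternated, and the periods overlapped, with 3.43 ± 2.69 CPM (SD, n = 6) before EGA and 7.85 ± 5.48 CPM (SD, n = 10) after it. The stage effect was not called (limma adjusted p = 0.128), and the filter of the comparison of periods dropped the locus. An exact two-sided permutation test over 8008 splits gave a difference of 0.68 between the periods (unadjusted p = 0.163), and 2 such tests were made, on BCL2L1 and BCL2L11. Its largest step, 1.99 from 4C to 8C, had SE 0.80 (limma adjusted p = 0.0649) and passed only with a pseudocount of 5 (limma adjusted p = 0.044). A change of BCL2L1 at EGA was thus not called, with a spread within the periods of the order of the difference between them.

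The BH3-only members had few reads. BCL2L11 (locus XLOC_007552), which encodes BIM, a protein able to bind all guardians, had 27 of its 31 reads before EGA. Its level was 2.22 and 0 CPM in MII, 0.666 and 2.66 CPM in 2C, and 4.86 and 3.07 CPM in 4C. After EGA it had reads only in 8C replicate 2 (2.89 CPM) and CM replicate 1 (1.03 CPM). The periods overlapped, with reads in 5 of 6 libraries before EGA and in 2 of 10 after it. The difference of -1.46 had an unadjusted p of 0.00762 in the exact two-sided permutation test over 8008 splits, and p lay between 0.0020 and 0.0200 when each library was left out. The splits treated the 2 libraries of a stage as separate, so this p does not allow for stage. The difference was -1.97 with a pseudocount of 0.5 and -0.55 with a pseudocount of 5. Without the filter, the stage effect of BCL2L11 was not called (limma adjusted p = 0.174). Most of its values lay at or near the floor of 3 reads. The log2 ratio of BCL2L11 to MCL1 reads, each plus 1, was -3.63 ± 1.55 (SD, n = 6) before EGA and -7.07 ± 1.33 (SD, n = 10) after it. Part of that ratio is the rise of MCL1, and a locus at 0 reads enters it through the added 1.

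BID (locus XLOC_057719), the substrate that caspase 8 cuts to link death receptors to mitochondria, had 1 read in 16C replicate 2 and 1 in BL replicate 2, which is under the floor. Its second locus was listed at 0. BIK (locus XLOC_057105), a BH3-only protein of the endoplasmic reticulum, was listed at 0 in every library. Of the 3 annotated genes on each side of BIK and of BID in the RefSeq gene table of assembly ARS-UCD2.0, all 6 were found by name and all 6 had reads, so the loci around both were not empty.

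Among the pore formers, BOK (locus XLOC_050593), which can open the membrane without the others, was the single one with reads. It had none in the 6 libraries before EGA. After EGA it had 2.47 CPM in 8C replicate 1, 6.58 CPM in 16C replicate 2, 2.05 and 1.43 CPM in CM, and 4.91 and 5.87 CPM in BL, from 2 to 5 reads each. The other 4 libraries after EGA had none, so the periods overlapped at 0. With under 30 reads in all BOK was not tested alone. The highest stage mean of BOK was that of BL, 5.39 CPM, from 5 and 4 reads. With the floor of 3 reads in the shallower library, BOK was at least 4.06-fold lower in MII and at least 2.70-fold lower in 2C. It was at least 2.59-fold lower in 4C and, after EGA, at least 2.20-fold lower in EM. The counting error of the BL mean is not included, so these folds are not strict bounds.

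BAX (locus XLOC_024226), BAK1 (locus XLOC_039599) and BCL2 (locus XLOC_041599) were listed at 0 in all libraries. None of them, nor BIK, lay in the longest run of consecutive loci at 0, which held 2578 loci. Of the 6 genes nearest to BAX, all 6 were found by name and 5 had reads. Of those nearest to BAK1 and to BCL2, 5 each were found and 4 had reads. In the gene table BAX overlaps TULP2, BCL2L10 a pseudogene, BCL2L11 ACOXL, BCL2L1 a long noncoding RNA and BID a transfer RNA gene, and the rule by which reads on overlapping genes were assigned is not given in the sources used here. The values of these members are uncertain to that extent.

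The loci whose course over the 16 samples was most like that of each member were ranked by Pearson r of log2(deposited value + 1) among the 9670 loci tested. For BCL2L10 they were a second H1FOO locus (r = 0.992), which encodes the linker histone of oocytes, OOSP1 (r = 0.989), an oocyte-secreted protein, and WEE2 (r = 0.985), the kinase that holds oocytes in meiosis. For MCL1 they were AGPAT5 (r = 0.972), WWTR1 (r = 0.965), a co-activator of the Hippo pathway, and TRIML2 (r = 0.959). For BCL2L1, whose values rest on few reads, r was lower, with LOC100850324 at 0.816, GRB7 at 0.770 and HPS4 at 0.729. The libraries share depth, amplification and stage, so these values only describe likeness.

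A further 11 genes of the BCL2 family were found, and 5 of them (BCL2A1, BCL2L14, BCL2L15, BMF and HRK) were listed at 0. Of the 3 that passed the filter, PMAIP1 and BAD were higher after EGA and BCL2L2 was lower. The filter asked for 7.42 CPM in at least 6 libraries. PMAIP1 and BAD reached that level in 6 libraries after EGA and in 0 before it, and BCL2L2 in 6 before EGA and 1 after it, so each passed through the period where it was high and its difference was favored by the filter. BCL2L2 (BCL-w), another guardian, had between 12.9 and 18.0 CPM before EGA and 0 and 12.5 CPM in 8C, and at most 4.94 CPM afterwards. All libraries before EGA were above all after it, the 8C libraries again differed, and the gene fell by 3.34 (SE 0.57, limma adjusted p = 2.9e-05). PMAIP1 (NOXA), the BH3-only protein that binds MCL1, had 2 reads before EGA, both in MII replicate 2. It had 2.47 and 0.962 CPM in 8C, 9.27 and 37.8 CPM in 16C, 13.1 and 25.5 CPM in EM, 9.23 and 2.86 CPM in CM, and 10.8 and 5.87 CPM in BL. The periods were apart by a narrow margin, 0.876 against 0.962 CPM, and PMAIP1 rose by 2.98 (SE 0.54, limma adjusted p = 5.4e-05). Its step from 8C to 16C, 2.88, was not called (limma adjusted p = 0.106).

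BAD, a BH3-only protein controlled by phosphorylation, was named after its values were seen, as its periods overlapped. It had at most 2.96 CPM before EGA, 35.9 and 35.6 CPM in 8C, 6.18 and 3.29 CPM in 16C, and 23.7 and 44.3 CPM in EM. It had 28.7 and 8.57 CPM in CM and 6.88 and 1.47 CPM in BL. The 8C libraries were alike here, and BAD rose by 3.17 (SE 0.63, limma adjusted p = 1.6e-04). Its step from 4C to 8C was 4.89 (SE 0.87, limma adjusted p = 7.9e-04). BCL2L12, also named after its values were seen, had 58 reads in all and was dropped by the filter. It had at most 1.31 CPM before EGA and between 1.55 and 7.75 CPM after it, so its periods were apart, close to the floor.

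**Figure D3:**
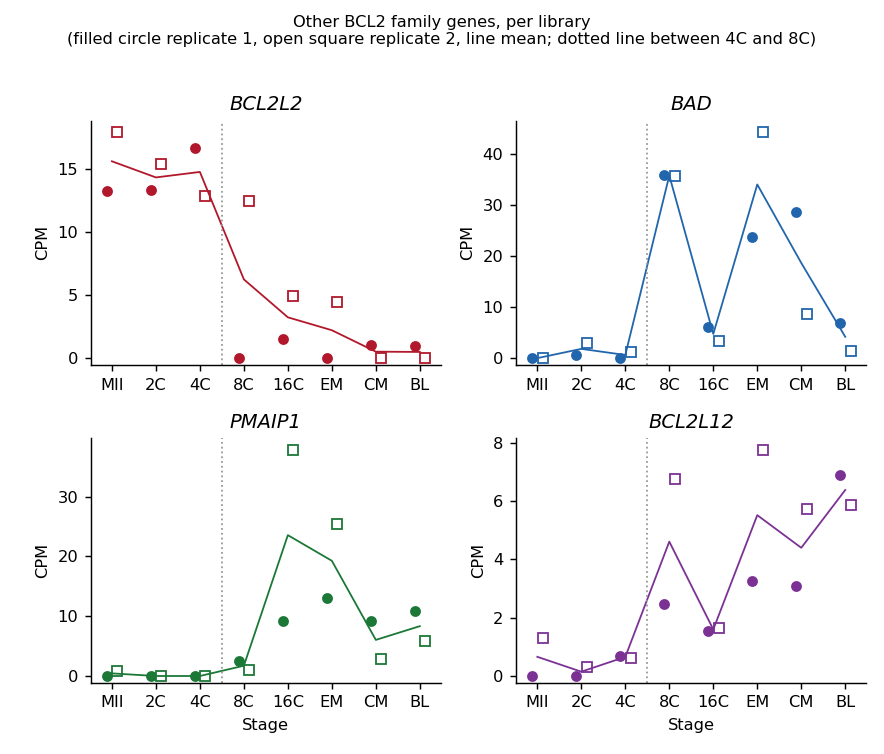
CPM of further BCL2 family genes (vertical axes) in each library by stage (horizontal axes), with points for libraries and a line through the stage means. BCL2L2 lies between 12.9 and 18.0 CPM up to 4C, PMAIP1 lies at 0.876 CPM or less up to 4C, and BAD reaches 35.9 and 35.6 CPM in 8C.

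Genes that act with or after the family at the mitochondrion were grouped into 8 lists of 68 genes, the further BCL2 genes included. Of these, 63 were found and 33 tested before against after EGA, with 10 higher, 11 lower and 12 not called by limma (36.9% and 29.9% of all loci tested). Of the 10 higher, 8 fell short of the 6 libraries that the filter asks for in the period where they were low, as did 4 of the 11 lower, so their differences were favored by the filter. The 8 were PMAIP1, BAD, DFFA and HUWE1, with 0 libraries at that level before EGA, DIABLO with 2, BNIP3L with 3, and TMBIM6 and VDAC2 with 4 each. Among the 4 were BCL2L2 with 1 library at that level after EGA, CASP2 with 3 and APAF1 with 5. Of the 8 lists, 7 are described here, and the other had 5 genes tested, with 0 higher, 3 lower and 2 not called. The median difference of the 33 genes was -0.15 and that of all loci tested 0.23. Scaling by total reads moved the median of all loci to 0.67 and the calls to 12 higher and 8 lower, with 41.6% and 23.0% of all loci tested.

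Of the 14 BNIP genes and membrane regulators, 11 were tested, of which 4 rose, 2 fell and 5 were not called. TMBIM6 (Bax inhibitor 1), an endoplasmic reticulum protein that limits cell death, rose by 4.44 (SE 0.58, limma adjusted p = 9.1e-07), from 18.1 ± 15.5 CPM (SD, n = 6) to 322 ± 158 CPM (SD, n = 10). VDAC2, the outer membrane channel that binds BAK1, rose by 2.53 (SE 0.41, limma adjusted p = 1.4e-05), from 10.8 ± 5.98 to 101 ± 81.6 CPM. Its highest pair was BL, at 292 and 192 CPM. The periods did not overlap for either gene. TMBIM6 was also called higher from MII (1.33 and 0.438 CPM) to 2C (38.6 and 22.8 CPM), by 3.73 (SE 0.58, limma adjusted p = 0.0089), before EGA, and from 4C to 8C, by 3.43 (SE 0.58, limma adjusted p = 5.2e-04). Of the genes whose periods overlapped, BNIP3L, a receptor for mitophagy, rose by 2.37 and VDAC1 fell by 1.65 (limma adjusted p = 0.0017 and 0.0040), and both were named after their values were seen.

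Of the 6 genes of the apoptosome and the released mitochondrial proteins, 4 were tested, of which 1 rose and 1 fell. APAF1, the scaffold of the apoptosome, had between 33.2 and 65.4 CPM before EGA and between 0.714 and 18.8 CPM after it. It fell by 3.18 (SE 0.51, limma adjusted p = 1.2e-05), and the step from 4C to 8C was -2.31 (limma adjusted p = 0.0361). APAF1 reached the 7.42 CPM of the filter in 6 libraries before EGA and 5 after it, which favored that difference. DIABLO (Smac), which binds inhibitors of caspases, had between 1.84 and 9.32 CPM before EGA and between 17.8 and 99.1 CPM after it, and rose by 2.48 (SE 0.44, limma adjusted p = 5.1e-05). It reached the level of the filter in 2 libraries before EGA and in 10 after it, which favored its rise. The periods of both genes were apart, in opposite directions. CYCS (cytochrome c) was not tested over the periods, with at most 1.48 CPM before EGA and between 0.773 and 16.5 CPM after it.

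Of the 10 caspases and nucleases, 9 were found and 4 tested, of which 1 rose and 2 fell. DFFA, the inhibitor and chaperone of the caspase-activated nuclease, had between 0 and 1.84 CPM before EGA and between 8.57 and 41.3 CPM after it. It rose by 3.99 (SE 0.43, limma adjusted p = 6.8e-08), but it passed the filter through its libraries after EGA alone, which favored that difference. Of the caspases, CASP6 fell by 2.12 (SE 0.38, limma adjusted p = 4.6e-05) with periods that overlapped, since EM replicate 2 had 66.4 CPM and BL replicate 1 49.1 CPM, and CASP2 fell by 1.39 (limma adjusted p = 0.021). CASP8 and CASP9, the initiators, had 9 and 21 reads in all, and CASP4 was listed at 0. These 5 caspases were named after their values were seen.

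**Figure D4:**
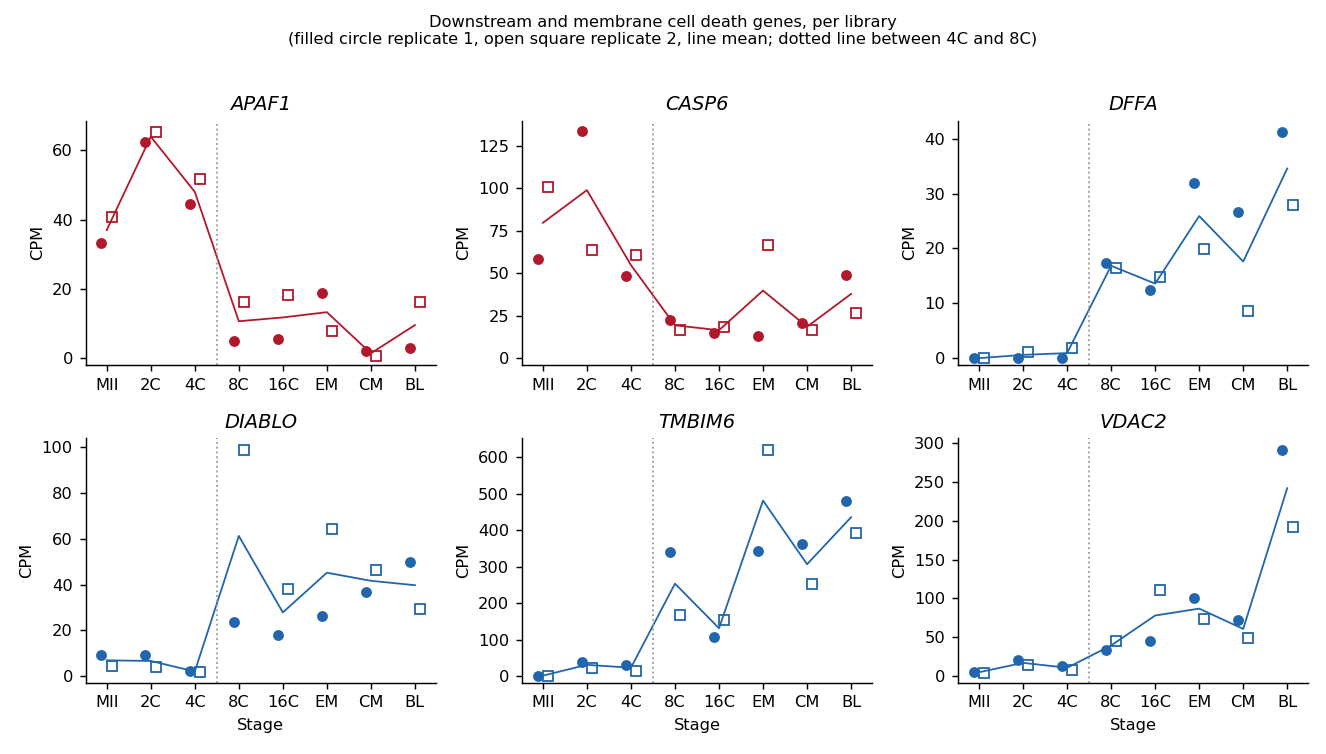
CPM of APAF1, CASP6, DFFA, DIABLO, TMBIM6 and VDAC2 (vertical axes) in each library by stage (horizontal axes), with points for libraries and a line through the stage means. APAF1 lies at 33.2 CPM or more up to 4C and at 18.8 CPM or less from 8C on, and DFFA, DIABLO, TMBIM6 and VDAC2 lie higher in all libraries from 8C on than in all up to 4C.

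Of the 6 inhibitors of apoptosis proteins, 5 were found, and neither of the 2 tested, BIRC5 (survivin) and BIRC6, was called (0.32 and -0.15, limma adjusted p = 0.43 and 0.75). XIAP and BIRC7 were listed at 0. In the death receptor list of 8 genes, 7 were found and 1 tested. This was RIPK1, the kinase that links receptors to survival or death, which had between 31.9 and 83.0 CPM before EGA and between 3.86 and 25.3 CPM after it. It fell by 2.45 (SE 0.37, limma adjusted p = 6.9e-06).

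Of the 6 listed regulators of the MCL1 protein, 5 were found and 3 tested. HUWE1 and TPT1 rose and FBXW7 fell, each with periods apart. HUWE1, a ubiquitin ligase of MCL1, had between 0.592 and 3.33 CPM before EGA and between 17.2 and 67.5 CPM after it, and rose by 3.43 (SE 0.42, limma adjusted p = 4.7e-07). Like DFFA, HUWE1 passed the filter through its libraries after EGA alone. TPT1 (TCTP), which binds and stabilizes MCL1, had between 8.33 and 63.2 CPM before EGA and between 129 and 526 CPM after it. It rose by 3.25 (SE 0.38, limma adjusted p = 2.0e-07). FBXW7, the receptor of another ligase of MCL1, had between 89.4 and 164 CPM before EGA and between 27.1 and 71.9 CPM after it. It fell by 2.02 (SE 0.28, limma adjusted p = 2.2e-06). The transcripts of both ligase genes moved in opposite directions. USP9X, the enzyme that removes ubiquitin from MCL1, was listed at 0.

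**Figure D5:**
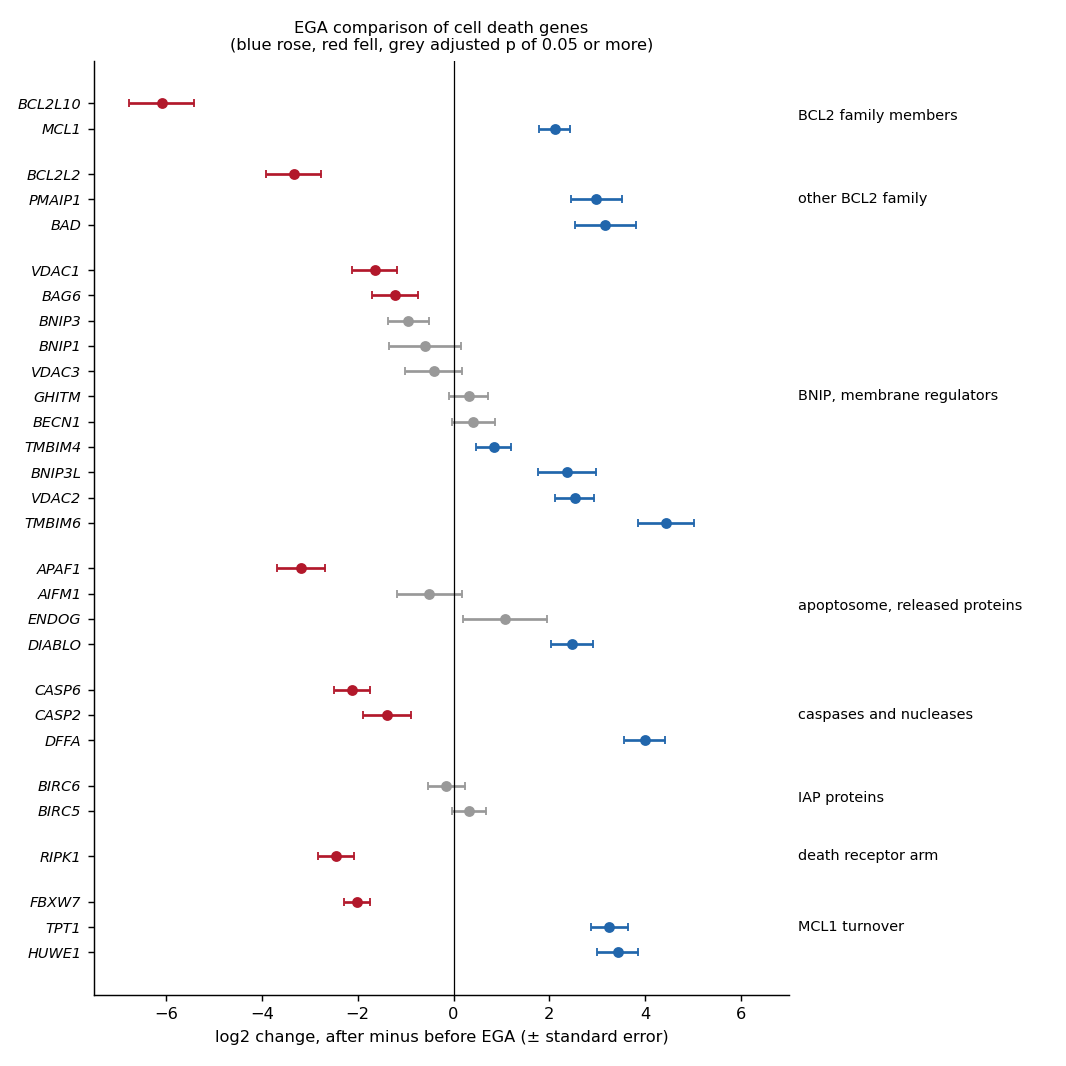
Difference after minus before EGA on the scale of log2(deposited value + 1) (horizontal axis) for members and pathway genes tested (vertical axis), with bars for the standard error. Blue points rose and red points fell at a limma adjusted p under 0.05, gray points were not called, and BCL2L10 (-6.09) lies furthest to the left.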

How the data were processed

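RNA of single bovine oocytes and embryos was amplified and sequenced on the SOLiD platform, and per the submitters' processing notes cutadapt, FastQC, TopHat, Cufflinks and HTSeq were used. The genome build and the rule for shared reads are not given in the sources used here. The deposited values are a signal, the reads per locus that the authors divided by a size factor for each library. Dividing a library's values by its smallest non-zero value gave whole numbers throughout (tolerance 0.01), which were taken as its reads, and CPM were computed from them. The planned test for raw counts was replaced because the values are scaled.

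Stages and both periods were compared on log2(deposited value + 1) in limma 3.58.1 under R 4.3.3, with moderated variances that follow the mean. P-values were adjusted by Benjamini-Hochberg over all loci that edgeR's filterByExpr kept on the recovered reads, at 0.05, separately for each step between stages. Members dropped by that filter with at least 30 reads were compared by exact two-sided permutation over samples (Python 3.11.15, numpy 2.4.6). The splits did not keep the libraries of a stage together. Alternatives were TMM (edgeR 4.0.16) and total read scaling, edgeR and DESeq2 1.42.0 on recovered reads, no filter, pseudocounts of 0.5 and 5, a replicate block, each library left out, summed loci, a contrast within the 8-stage model and both 8C libraries left out. The tests were tested on simulated data. The depth per library, between 607672 and 3379426 reads, sets a floor of 3 reads. The labels do not say whether embryos came from separate animals, so p-values measure the spread between these samples.

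The members and lists were chosen with earlier results of these data known. Named were all members, from each list up to 3 genes with the largest rise and up to 3 with the largest fall among called genes whose periods were apart, and the 3 loci most like each member tested. Exceptions are stated, among them CYCS, BIRC5, BIRC6 and the listed genes at 0 or with few reads, which were named after their values were seen. Some listed genes are not reported here. The stage names EM, CM and BL follow the labels.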

Additional observations from a re-analysis of the deposited data

Results flagged for a closer look

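In each period, the highest and lowest library of members and named genes were compared with the nearest library by Dixon's criterion at 95%. Of 30 groups tested 5 had a library that stood apart. The criterion assumes normal values from a single population, but the CPM hold many zeros and each period pools several stages. No chance rate is therefore given.

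Among the 10 libraries after EGA, 8C replicate 2 stood apart for 3 genes. It had 27.9 CPM of BCL2L10, 2.89 CPM of BCL2L11 and 12.5 CPM of BCL2L2, all higher before EGA. The oocyte markers summed to 1463 CPM in this library and to 26.0 CPM in 8C replicate 1, and their part in these values was not tested. Among the 6 libraries before EGA, MII replicate 2 held the only reads of PMAIP1, 0.876 CPM from 2 reads, and 2C replicate 1 had the highest level of TPT1, 63.2 CPM.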

How the results depend on the processing

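The calls of BCL2L10 (lower) and MCL1 (higher) after EGA kept their direction and their side of the threshold under all 11 alternatives and with each of 16 libraries left out, with log2 differences between -6.84 and -4.23 and between 2.00 and 2.59 under the alternatives. Among the members and the 11 pathway genes named by rule, no called result changed direction where it could be tested. Sizes did move under the alternatives, among them PMAIP1 from 1.44 to 5.38, DFFA from 2.27 to 4.90 and BCL2L2 from -3.84 to -2.01. PMAIP1 no longer passed the filter with any of 6 libraries left out. Other genes, and steps between stages of pathway genes, were not rerun singly. Of the 2 member steps called between adjacent stages, 1 was left with TMM scaling, total read scaling, a pseudocount of 0.5, no filter, edgeR and the replicate block, and between 0 and 2 with a library left out. Without the filter 4 members were called before against after EGA, 2 higher and 2 lower, the added ones being BOK, which had no reads before EGA, and BCL2L11 (-1.46, limma adjusted p = 0.0147). Of all 18318 loci then tested, 3372 (18.4%) were higher and 3703 (20.2%) lower, against 2550 and 2069 with the filter. The pathway genes called higher were 16 in the contrast within the 8-stage model, against 10, where more loci were tested (9670) and 37.9% of all were higher and 32.1% lower. The log2 difference of the ratio of BCL2L10 to MCL1 between the periods was -8.08, and -6.17 with a pseudocount of 5 reads (chosen after seeing the data), which weighs more on libraries with no BCL2L10 reads.

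With the replicate number as a block, 1 member step was called, against 2, no other call of a member changed, and 20 pathway genes were called before against after EGA, against 21. A number joins no oocyte to an embryo, as each library is its own specimen. The correlation of deviations from the stage means lay between -0.257 and 0.134 over 28 pairs of same-numbered samples, with 1 over 0.1. Deviations of both libraries of a stage mirror each other, so a shared factor can give either sign. Whether samples shared a batch was not tested.

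Members below the floor of 3 reads (BID) or near it (BOK, BCL2L11) limit what depth can show. Levels rest on 2 libraries a stage, and the 4C to 8C steps depend on which library is used.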
